A study of Mus musculus with 2 samples.

Results

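The genes of mitochondrial ribosomal proteins are described here in MS1 cells, an endothelial line derived from the pancreatic islets of mice. A member is a listed gene whose mouse Ensembl identifier maps to a protein-coding symbol that starts with Mrpl (large subunit) or Mrps (small subunit) followed by a digit. The rule found 77 members among the 11405 listed genes, 48 of the large and 29 of the small subunit. The rule reads symbols and no measured value. A lentivirus had brought a short hairpin RNA (shRNA), a construct that lowers the transcript it matches, into the cells. In the control, with its genotype labelled wild type, the hairpin was directed at LacZ, a bacterial gene, and in the knockdown at Pspc1. Pspc1 encodes an RNA-binding protein of paraspeckles, which are nuclear bodies built on the RNA Neat1. Each group was 1 library of poly-A RNA. The sources used here do not say whether a group was 1 culture or several, or whether the infected cells were cloned.

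The series was made to compare the RNA profiles of both lines. Values are given as deposited, control first. They are counts that the authors divided by a factor for each library, and 64009912 and 53518762 reads lie behind them on the listed genes. Pspc1 itself had 28.8 in the control and 3.78 in the knockdown library, 7.62-fold less. Of 10 endothelial markers 8 were listed, among them Pecam1 with 2258 and 2175 and Cdh5, VE-cadherin, with 859.4 and 511.2. More than 1.5-fold lower in the knockdown library were 2 of the 7 markers averaging at least 50, Cdh5 and Kdr (148.9 and 77.3). Among all 3629 genes with that mean, 3.89% were at least 1.5-fold lower. Erg (119.4 and 85.0) and Tek (13.6 and 7.13, with a mean under 20) were lower as well. Tie1 was higher (1079.5 and 1354.5), and Emcn (112.5 and 113.2) and Eng (594.8 and 592.9) were nearly equal. The part of these differences in the results was not tested. The endothelial markers Vwf and Cldn5 and the 5 islet markers are not among the genes analysed here. Of 4 epithelial markers 1 was listed, Krt18 (23.9 and 36.9), and of 3 leukocyte markers 1, Cd68 (102.7 and 123.7). Of 5 mesenchymal markers 2 were listed, with summed values of 1.87 and 3.37. Each difference below compares 2 single libraries, has no replicate check and carries no p-value. Fewer cells with a transcript and less of it per cell cannot be told apart in such bulk RNA.

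Mitochondrial ribosomes read the few messenger RNAs of the mitochondrial genome, which encode core subunits of the respiratory chain and of ATP synthase. Their ribosomal RNAs come from the mitochondrial genome as well, whereas all their proteins are encoded in the nucleus, made on cytosolic ribosomes and imported. Some of these proteins descend from bacterial ribosomal proteins, and others are specific to mitochondria. The symbol does not always give the place of the protein: the products of Mrps18a and Mrps30 sit in the large subunit, and that of Mrps36 belongs to the 2-oxoglutarate dehydrogenase complex. These 3 genes are counted with the small subunit below, as their symbols say.

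The promoters of the members often held short sequences known from genes of mitochondrial function. RefSeq promoters (GRCm38.p6, the build also called mm10), from 250 bases before to 50 after each annotated start, were matched for 68 of the 77 members. Both strands were searched for GCGC and TGCGC with any base between them (NRF1), CCGGAAG (ETS factors) and AANATGGCG (YY1). The ETS letters were found at 25 of 68 members (36.8%), against 21.6% of the 8688 listed genes with a promoter and 9.93% of all 27025 genes in the table. NRF1 letters were found at 13 members (19.1%, against 12.3% of listed genes and 5.19% of all genes). Those of YY1 were found at 11 (16.2%, against 6.51% and 2.76%). At least 1 of the 3 was present at 41 members, or 60.3%, against 35.1% of the listed genes. Matches of different motifs did not overlap each other. Other promoter elements were no more frequent than among listed genes: CACGTG was found at 7.35% of members against 12.4%, CCAAT at 38.2% against 43.4%, and TATAAA at 7.35% against 7.90%. By subunit, ETS letters were found at 14 of 42 large and 11 of 26 small subunit genes, and NRF1 letters at 10 (23.8%) and 3 (11.5%). The share with NRF1 letters was thus above that of the listed genes (12.3%) in the large subunit and not in the small. A match describes the letters in the window and says nothing of the factor's binding.

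The stretches below run from 150 bases before to 30 after the start, 5′ to 3′ on the gene's strand, with NRF1, ETS and YY1 matches in capitals. Mrpl36 and Mrps23 are shown because they had the highest and the lowest log2 ratio of all members. The other 4 are among the 8 members whose promoters held a pair of the motifs. Mrpl36 (chr13:73330859-73331038, plus strand) and Mrps23 (chr11:88204238-88204417, plus strand) come first. They are followed by Mrpl27 (chr11:94653641-94653820, plus strand), Mrpl57 (chr14:57826089-57826268, plus strand), Mrps18a (chr17:46110854-46111033, plus strand) and Mrps21 (chr3:95871485-95871664, minus strand).
Mrpl36: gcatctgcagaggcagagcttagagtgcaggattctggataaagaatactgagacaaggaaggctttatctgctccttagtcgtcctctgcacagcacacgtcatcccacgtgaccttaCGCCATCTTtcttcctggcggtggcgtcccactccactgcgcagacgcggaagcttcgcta
Mrps23: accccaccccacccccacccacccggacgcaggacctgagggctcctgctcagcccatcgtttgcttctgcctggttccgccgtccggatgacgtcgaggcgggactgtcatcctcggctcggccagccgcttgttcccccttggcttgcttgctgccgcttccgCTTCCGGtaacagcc
Mrpl27: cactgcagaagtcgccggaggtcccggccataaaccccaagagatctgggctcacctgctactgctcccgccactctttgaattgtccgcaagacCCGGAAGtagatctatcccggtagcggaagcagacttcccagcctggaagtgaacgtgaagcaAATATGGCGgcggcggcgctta
Mrpl57: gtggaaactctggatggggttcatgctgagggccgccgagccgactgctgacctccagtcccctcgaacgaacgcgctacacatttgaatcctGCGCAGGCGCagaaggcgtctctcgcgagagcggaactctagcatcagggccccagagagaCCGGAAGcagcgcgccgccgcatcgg
Mrps18a: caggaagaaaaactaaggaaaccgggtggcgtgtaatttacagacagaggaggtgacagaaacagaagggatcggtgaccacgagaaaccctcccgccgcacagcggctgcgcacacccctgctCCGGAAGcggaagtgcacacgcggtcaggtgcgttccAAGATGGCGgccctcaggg
Mrps21: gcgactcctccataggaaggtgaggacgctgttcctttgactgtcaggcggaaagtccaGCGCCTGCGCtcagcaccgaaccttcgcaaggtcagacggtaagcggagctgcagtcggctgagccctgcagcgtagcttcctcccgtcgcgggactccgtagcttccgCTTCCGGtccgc

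The match in Mrpl36 is the YY1 letters on the reverse strand, 31 bases before the start, and that in Mrps23 the ETS letters on the reverse strand, from base 16 after it. Mrpl27 and Mrps18a pair an ETS match before the start with a YY1 match just after it. Mrpl57 and Mrps21 pair an NRF1 match before the start with an ETS match after it. The log2 ratio of knockdown over control, defined below, was set beside the motifs for members with a mean value of at least 20. Its median was 0.19 in the 12 members with NRF1 letters and 0.08 in the 49 without. For ETS letters the medians were 0.13 (23 members) and 0.08 (38 members), and for YY1 letters 0.12 (11 members) and 0.08 (50 members). No test of these differences was made.

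Members differed far more in level than between the libraries. Large subunit genes had values from 8.17 to 326.1 in the control library (median 67.8) and from 6.60 to 322.5 in the knockdown library (median 71.8). Small subunit genes ran from 11.7 to 206.5 (median 60.2) and from 11.5 to 224.5 (median 59.0). All members together made up 0.615% of the summed values in the control and 0.608% in the knockdown library. The rank order was nearly the same in both, with a Spearman's rho of 0.98 across the 77 members, which are not independent replicates.

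Levels were compared between genes only per length. Per kb of exons, with all exons of a gene merged, the highest large subunit gene in the control library was Mrpl54 (177.1), followed by Mrpl34 (154.6), Mrpl2 (153.1), Mrpl14 (147.9) and Mrpl12 (135.2). The lowest 5 were Mrpl47 (1.85), Mrpl1 (1.96), Mrpl32 (2.74), Mrpl13 (6.45) and Mrpl42 (7.85). Mrpl12 is the stalk protein that helps recruit translation factors, while Mrpl2 and Mrpl14 are relatives of bacterial core proteins. In the small subunit Mrps24 (113.9), Mrps7 (99.7), Mrps28 (94.0), Mrps21 (87.7) and Mrps12 (53.6) were highest per kb of exons. Mrps22 (2.94), Mrps35 (4.24), Mrps9 (4.54), Mrps30 (5.59) and Mrps31 (6.02) were lowest. The highest level was 95.8 times the lowest in the large subunit and 38.7 times in the small subunit.

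Merged exons can be much longer than the messenger RNA, so levels were also taken per kb of the principal mRNA of each gene, a scale added after the data were seen. Merged exons exceeded the principal mRNA by more than 2 times for 20 members. On that scale Mrpl33 had 163.6 in the control library, against 10.7 per kb of exons, and became the fifth of the large subunit. Mrps10 had 59.2 against 7.46. Mrpl54 (241.9 in the control library) and Mrps24 (167.8) were again the highest of their subunits, and Mrpl1 (2.36) and Mrps35 (8.80) were lowest. The order of members on both scales was related, with a Spearman's rho of 0.82 across 77 genes. Places in the order that differ between the scales, such as that of Mrpl33, cannot be settled with these data.

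**Figure D1:**
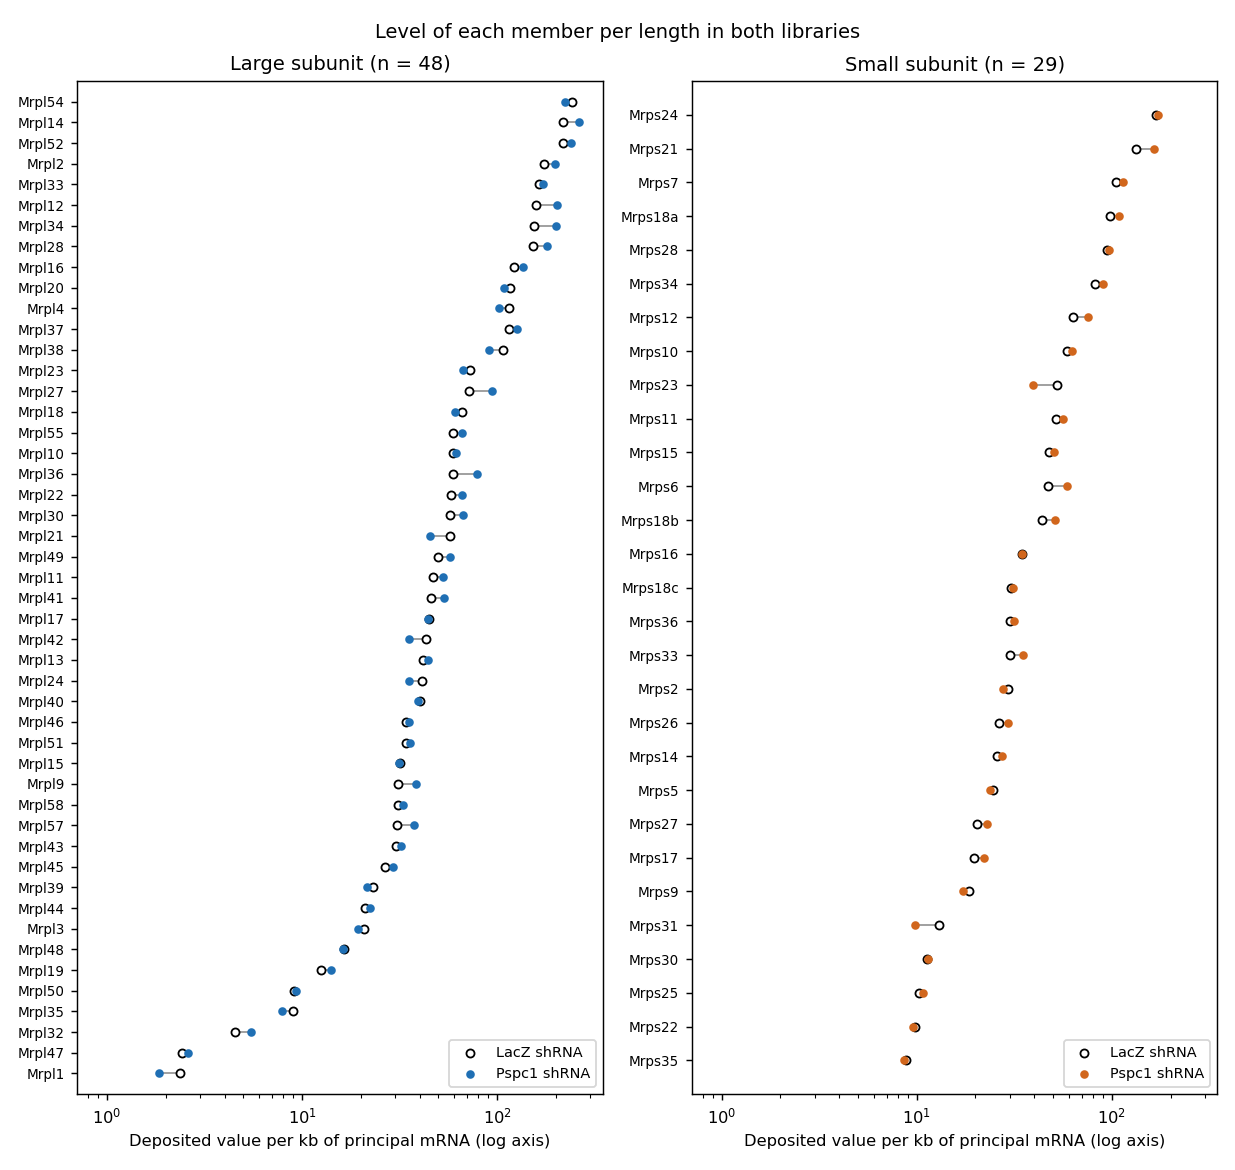
Deposited value per kb of the principal mRNA for each large (left) and small (right) subunit gene, on a log axis, sorted by the control library. Open circles are the LacZ shRNA library and filled circles the Pspc1 shRNA library, 1 library each. Levels span 102.4 times in the large and 19.1 times in the small subunit in the control library, while the circles of one gene lie close together.

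No member changed by the size rule. The log2 ratio is log2((knockdown + 0.5)/(control + 0.5)), and the size rule asked for a mean over both libraries of 50 or more together with a 1.5-fold difference. Of 36 large and 18 small subunit genes with that mean, 0 were higher and 0 were lower. Among all 3629 genes with that mean, 3.39% were at least 1.5-fold higher and 3.89% at least 1.5-fold lower. At 2-fold the members called were likewise 0 of 54 in each direction, against 0.551% higher and 0.937% lower of all genes. At such small background shares, 0 of 54 is near the background and is no result about the members. At 1.25-fold, a limit added after the data were seen, 4 large subunit genes were higher (Mrpl12, Mrpl27, Mrpl34 and Mrpl36), against 15.9% of all genes. Mrpl21 and Mrps23 were at least 1.25-fold lower, against 10.7% of all genes.

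**Figure D2:**
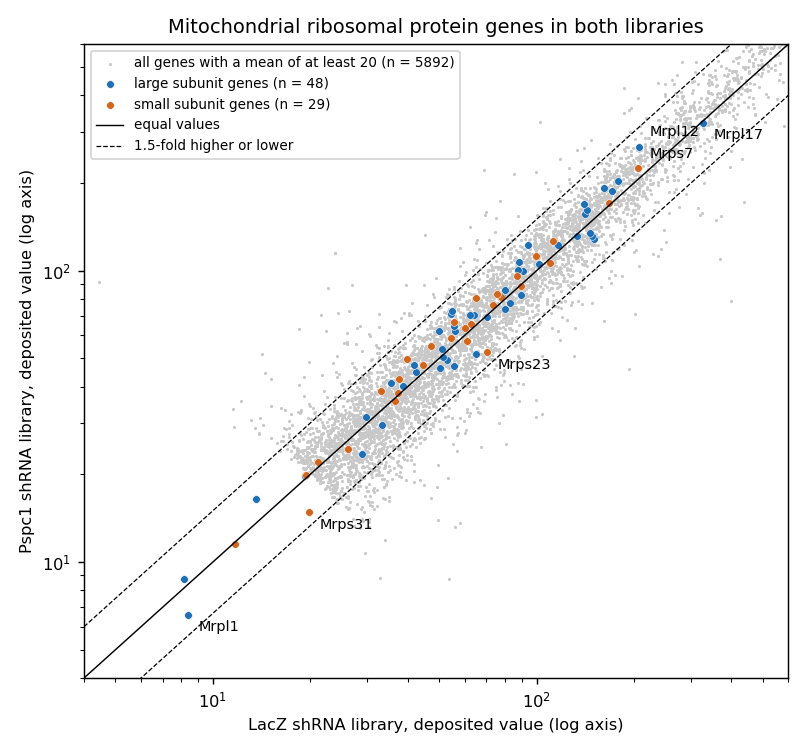
Deposited value in the Pspc1 shRNA library against that in the LacZ shRNA library, both on log axes, for genes averaging at least 20 (grey; some lie beyond the axes) and for every large (blue) and small (orange) subunit gene. The solid line marks equal values and the dashed lines a 1.5-fold difference; all 77 members lie between the dashed lines.

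Both subunits had nearly the same median log2 ratio. Over members with a mean of at least 20 it was 0.08 for 44 large subunit genes and 0.08 for 26 small subunit genes, beside 0.04 for all 5892 genes with that mean. Both medians turned to -0.02 with scaling by total reads, which moved the median of all genes by -0.10, so the direction of either subunit depends on the scaling. Relative to the median of all genes, both subunits were 0.04 higher as deposited and under the 3 other scalings. A log2 ratio above 0 was found in 28 of 44 large (63.6%) and 20 of 26 small (76.9%) subunit genes, against 55% of all genes with that mean; with scaling by total reads these counts were 20 of 44 (45.5%) and 12 of 26 (46.2%), against 41% of all genes. Members lay close together as deposited: 81.4% were within 0.25 log2 of equality, against 57.8% of all genes, and all 70 were within 0.5, against 86.6%. Mrps23 passed 0.5 with scaling by total reads (-0.52) and after the length and GC correction described below (-0.55).

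Counting error was smaller than many of these differences. The 95% exact counting interval of the ratio had a median width of 0.13 log2 over the 70 members. It lay above 0 for 41 members (58.6%, against 46.4% of all genes with that mean), below 0 for 14 (20%, against 37% of all genes) and held 0 for 15 (21.4%, against 16.6%). These intervals compare 2 libraries, not 2 conditions, and cover neither the spread between cultures nor the choice of scaling.

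**Figure D3:**
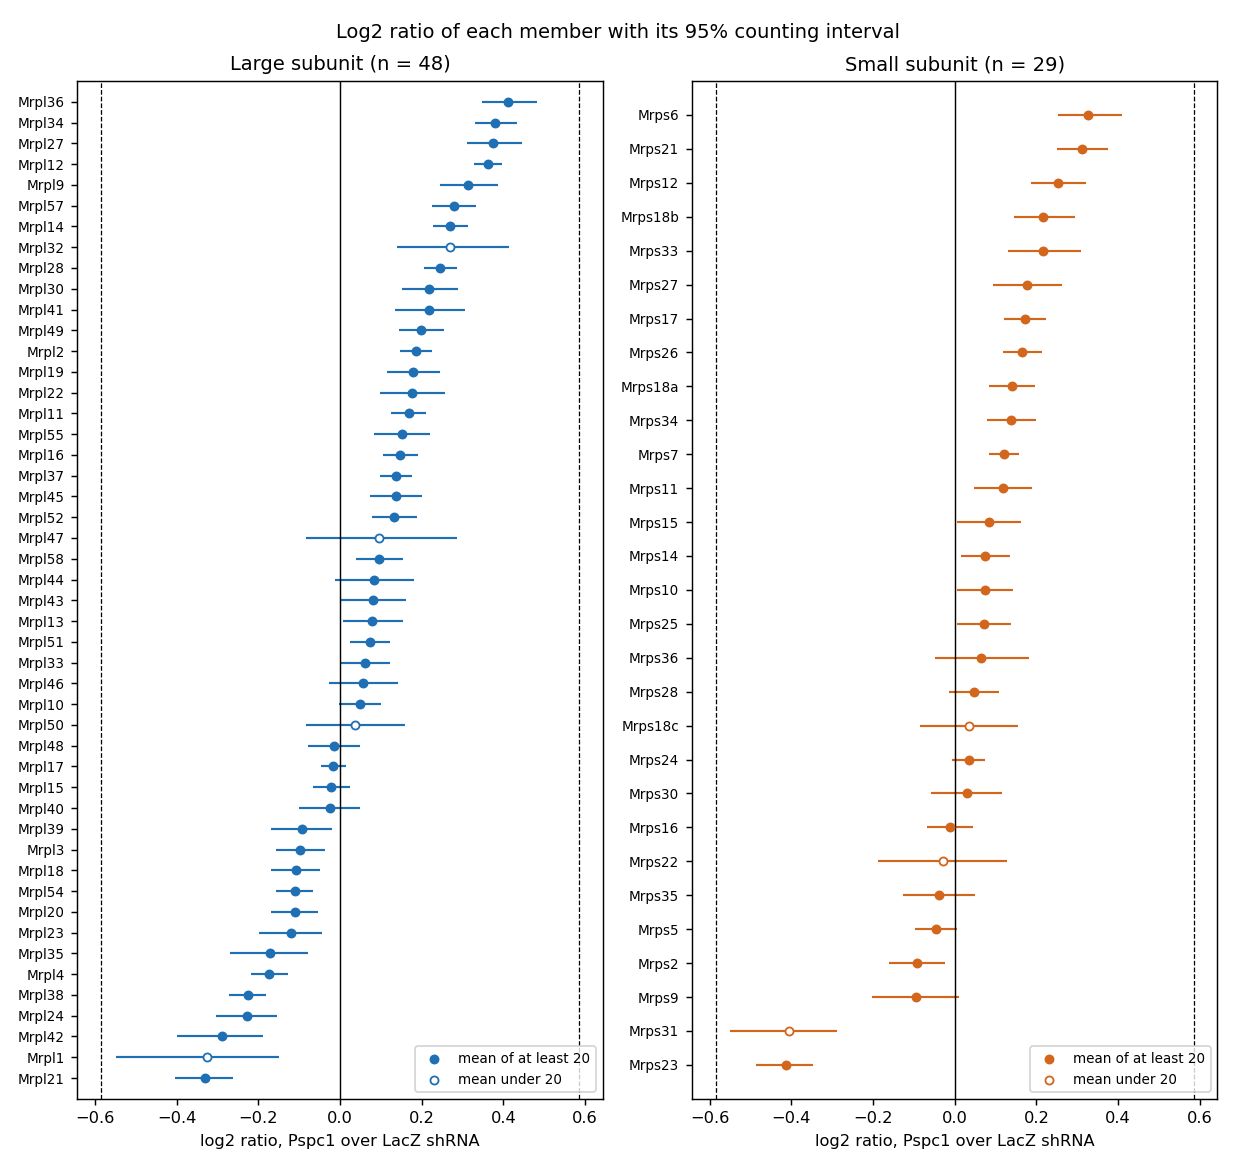
Log2 ratio of knockdown over control for each member (points) with the 95% counting interval of the ratio (lines), large subunit left and small subunit right. Open points have a mean under 20, and dashed lines mark 1.5-fold; Mrpl36 and Mrps6 lie at the top and Mrpl21 and Mrps23 at the bottom of their subunits, all inside the dashed lines.

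Mrpl36, Mrpl34 and Mrpl27 had the highest log2 ratios of the large subunit as deposited. Mrpl36 (ENSMUSG00000021607, mm10 chromosome 13, 73328513 to 73332178, plus strand), the counterpart of bacterial L36, had 54.7 in the control and 72.9 in the knockdown library. That is a log2 ratio of 0.41 with a counting interval of 0.35 to 0.48. Its exons overlap those of Ndufs6, a subunit of respiratory complex I on the other strand, by 30 bases. Its GENCODE start, used for neighbours, lies upstream of the RefSeq start whose promoter is shown above. Mrpl34, the counterpart of L34, had 93.8 and 122.3 (log2 ratio 0.38), and Mrpl27, the counterpart of the L27 protein that lies near the peptidyl transferase centre, 54.5 and 70.8 (0.38). For these genes the knockdown library was higher by 1.30 to 1.33 times.

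Stalk proteins did not differ by one amount. Mrpl12, which also binds the mitochondrial RNA polymerase, had 207.1 and 266.2, a log2 ratio of 0.36 with an interval of 0.33 to 0.40. Mrpl11, at the base of the stalk, had 143.5 and 161.3 (0.17). Mrpl10, which holds the Mrpl12 copies, had 101.8 and 105.3 (0.05), and its interval of -0.003 to 0.10 held equality. The counting intervals of the 3 genes did not overlap as deposited. After the correction for length and GC content described below, the log2 ratios were 0.17 for Mrpl12, 0.14 for Mrpl11 and -0.11 for Mrpl10, so that the gap between Mrpl12 and Mrpl11 was smaller than the width of either interval.

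Among large subunit genes averaging 20 or more, the next by ratio after Mrpl12 were Mrpl9 (49.9 and 62.0, log2 ratio 0.31), Mrpl57, a protein specific to mitochondria (88.3 and 107.2, 0.28), Mrpl14, on which an assembly factor docks (140.4 and 169.3, 0.27), and Mrpl28 (162.1 and 192.3, 0.25). Lowest with that mean was Mrpl21, the counterpart of L21, with 65.2 and 51.8 (log2 ratio -0.33, interval -0.40 to -0.26). Mrpl42, which is specific to mitochondria, had 28.9 and 23.6 (-0.29). Around the peptide exit tunnel the values lay on both sides of equality. Mrpl24 had 55.4 and 47.3 (-0.23), Mrpl4 148.1 and 131.3 (-0.17) and Mrpl23 50.3 and 46.3 (-0.12). Mrpl22 had 41.9 and 47.4 (0.18). Mrpl45, which ties the ribosome to the inner membrane, had 64.3 and 70.7 (0.14). The other low members with that mean were Mrpl38 (150.5 and 128.7, -0.22), Mrpl35 (33.2 and 29.4, -0.17) and Mrpl20 (89.2 and 82.6, -0.11). Mrpl17, the member with the highest value in both libraries, had 326.1 and 322.5 (-0.02). Mrpl58, a peptidyl-tRNA hydrolase that rescues stalled ribosomes, had 80.1 and 85.7 (0.10).

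Of the small subunit, Mrps23 (ENSMUSG00000023723, mm10 chromosome 11, 88204388 to 88211507, plus strand) stood lowest. This protein specific to mitochondria had 70.1 and 52.5, 1.33-fold less in the knockdown library, with a log2 ratio of -0.41 and an interval of -0.49 to -0.35. Its ratio was -0.52 with scaling by total reads and -0.55 after a correction for length and GC content. The next members up the order with a mean of at least 20 were much closer to equality. Mrps9, whose bacterial relative reaches the peptidyl site, had 26.2 and 24.5 (-0.09), Mrps2 61.1 and 57.3 (-0.09), and Mrps5 110.2 and 106.7 (-0.05). Mrps35 had 36.6 and 35.7 (-0.04), Mrps16 89.6 and 88.9 (-0.01), Mrps30 37.3 and 38.0 (0.03) and Mrps24, the counterpart of S3, 167.0 and 170.9 (0.03).

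As deposited, the highest ratios of the small subunit were those of Mrps6 (39.7 and 49.9, log2 ratio 0.33) and Mrps21 (64.8 and 80.6, 0.31), relatives of bacterial S6 and S21. Mrps12, at the decoding centre, had 55.8 and 66.5 (0.25, interval 0.19 to 0.32). Mrps33 had 33.2 and 38.6 (0.22), Mrps27, a protein with pentatricopeptide repeats, 37.5 and 42.5 (0.18), Mrps17 99.3 and 112.0 (0.17) and Mrps26 112.5 and 126.1 (0.16). Mrps7, the small subunit member with the highest value, had 206.5 and 224.5 (0.12). After the correction for length and GC content, the log2 ratio was 0.20 for Mrps6, 0.09 for Mrps21 and 0.006 for Mrps12. Mrps30 (0.36) and Mrps33 (0.32) then stood highest.

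Of the Mrps18 paralogs, which descend from 1 bacterial protein and sit at different places of the ribosome, all had ratios inside the range of the other small subunit genes. Mrps18b had 47.3 and 55.04 (log2 ratio 0.22), Mrps18a 86.9 and 95.8 (0.14) and Mrps18c 19.4 and 19.9 (0.03). Mrps36 had 21.1 and 22.1 (0.07). Moving Mrps18a and Mrps30 to the large subunit and leaving out Mrps36 gave medians of 0.08 and 0.08.

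Relatives of bacterial proteins and proteins specific to mitochondria overlapped widely. In the large subunit the median log2 ratio was 0.15 for 27 relatives of bacterial proteins and 0.08 for 17 specific proteins. In the small subunit it was 0.07 for 15 relatives and 0.14 for 11 specific proteins, with Mrps18a and Mrps18b counted as specific. With both counted as relatives, an alternative added after the data were seen, the medians were 0.08 (17 relatives) and 0.07 (9 specific proteins), so the order in the small subunit depends on these 2 genes.

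Members with a mean under 20 numbered 4 in the large and 3 in the small subunit. Mrpl1 had 8.40 and 6.60, a log2 ratio of -0.33 with a wide interval of -0.55 to -0.15. Mrpl47 had 8.17 and 8.77 (0.10, interval -0.08 to 0.29), Mrpl32 13.6 and 16.5, and Mrpl50 19.2 and 19.7. The log2 ratio of Mrpl32 was 0.27 as deposited and 0.60 after the length and GC correction, below the mean at which genes were called. Mrps22, whose human counterpart is mutated in a deficiency of oxidative phosphorylation, had 11.7 and 11.5. Mrps18c is given above, and Mrps31 had 19.8 and 14.8, a log2 ratio of -0.41 with an interval of -0.55 to -0.29. The fewest reads behind a member's value in a library were 335, for Mrpl1.

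Longer members tended to have lower log2 ratios, as did longer genes in general. Spearman's rho between log2 ratio and exonic length was -0.36 across the 70 members with a mean of at least 20 and -0.32 across 5889 genes; with the length of the principal mRNA it was -0.22 across the members. These genes share the same pair of libraries and are not independent replicates. Members were short, with a median exonic length of 2213.5 bp, while that of the 5892 genes averaging at least 20 was 4171 bp. In the large subunit the median log2 ratio was 0.16 for 20 genes under 2000 bp, 0.10 for 13 between 2000 and 4000 bp and -0.01 for 11 over 4000 bp. The small subunit had 0.08 (9 genes), 0.12 (9 genes) and 0.05 (8 genes) and so did not fall step by step. With all genes split by length into 10 equal groups, the shortest held genes of up to 1734 bp, where the median was 0.18 for all 589 genes and 0.15 for the 27 members in it. After a correction for length and GC content fitted across all genes, the median was 0.03 for the large and 0.08 for the small subunit, beside 0.05 for all genes, so that the large subunit lay 0.02 below all genes. The corrected log2 ratio was 0.21 for Mrpl36, 0.05 for Mrpl34 and 0.17 for Mrpl12.

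**Figure D4:**
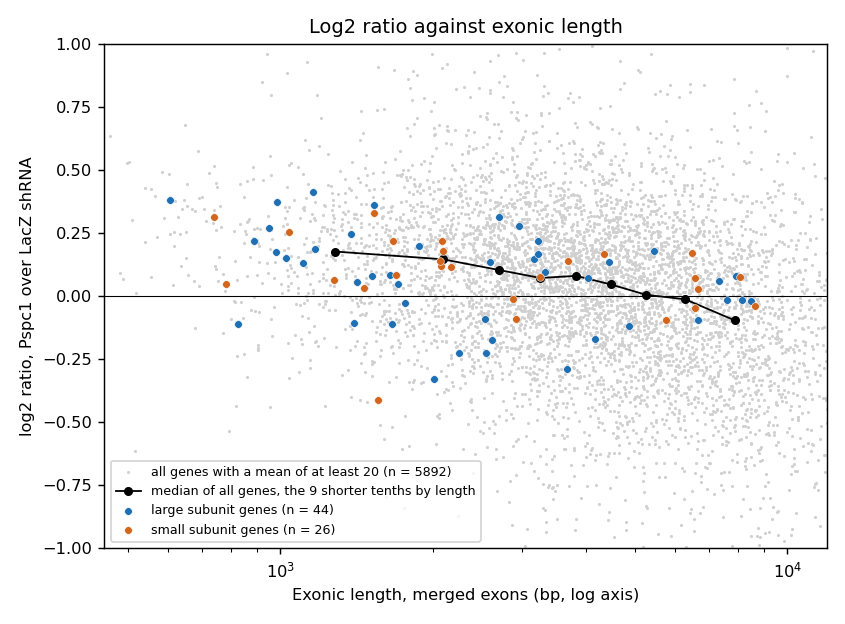
Log2 ratio against exonic length (log axis) for genes averaging at least 20 (grey; some lie beyond the axes) and for the large (blue) and small (orange) subunit genes among them. Black points join the medians of all genes split into 10 equal groups by length (the longest group is not drawn); the median goes from 0.18 in the shortest group to -0.10 in the ninth, and the members spread on both sides of it.

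Members often lay head to head with another gene. In GENCODE M21, 33 of 77 members (42.9%) had an annotated start within 1000 bp of the start of a protein-coding gene on the opposite strand, against 17.6% of the 10551 listed protein-coding genes. The share was 24 of 48 in the large and 9 of 29 in the small subunit. One such pair joins both subunits: Mrpl46 (38.7 and 40.3) and Mrps11 (54.4 and 59.0) start 412 bp apart on chromosome 7, with log2 ratios of 0.06 and 0.12. Several partners also serve mitochondria. Mrps12 starts 172 bp from Sars2, the mitochondrial seryl-tRNA synthetase gene (24.6 and 24.3). Mrpl43 starts 779 bp from Twnk, the helicase of mitochondrial DNA (39.3 and 43.7), and Mrpl36 starts 29 bp from Ndufs6 (56.3 and 59.6). Mrpl49 starts 59 bp from Fau, which encodes a cytosolic ribosomal protein fused to a ubiquitin-like part, and that gene had 1461 and 2037, a log2 ratio of 0.48 beside 0.20 for Mrpl49.

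Partners were not bound to the same ratio. Mrpl21 had a log2 ratio of -0.33 and its neighbour Ighmbp2, starting 116 bp away, 0.09. Mrps12 had 0.25 and Sars2 -0.02. Both ratios had the same sign in 15 of the 27 pairs with both genes listed, and in 11 of the 14 pairs in which both had a mean of at least 20. The share among other gene pairs was not taken, so these counts are no result about such pairs. With that mean, 68.6% of members and 55% of all genes had a log2 ratio above 0, and signs depend on the scaling. Because no strand-marking kit is named, reads over shared exons cannot be told apart, and exons of 22 members overlap another listed gene. Without those members the median log2 ratio was 0.10 for the large and 0.07 for the small subunit.

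The 77 members lie on 17 chromosomes, with 11 of them on chromosome 11 and 8 on chromosome 17. The members with the highest and lowest ratios were not neighbours: Mrps23, Mrpl27 and Mrpl12 are all on chromosome 11, with log2 ratios of -0.41, 0.38 and 0.36, at 88204388, 94653767 and 120484613.

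One mitochondrial ribosomal protein gene outside the symbol rule did pass the size rule. It was 1 of 4 such genes with a mean of at least 50. Among all 3629 genes with that mean, 3.89% were at least 1.5-fold lower. Dap3 (ENSMUSG00000068921, mm10 chromosome 3, 88920803 to 88951181, minus strand), which encodes a GTP-binding protein of the small subunit first known from cell death, fell from 119.5 to 69.6. This was 1.72-fold, with a log2 ratio of -0.77 and a counting interval of -0.84 to -0.72 from 7798 and 3535 reads. Its ratio ran from -0.88 with scaling by total reads to -0.69 after the length and GC correction, past 1.5-fold in each of the 5 settings tried. Its exons overlap those of Ash1l by 352 bases. The other proteins of this kind with other symbols lay above or close to equality where their mean was at least 20. Aurkaip1 had 123.5 and 145.2, Gadd45gip1 71.7 and 85.1, and Chchd1 65.3 and 74.95. Ptcd3, with a mean under 20, had 10.3 and 8.10.

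Genes that assemble or serve the mitochondrial ribosome were mostly close to equality. Of 6 assembly and rRNA modification genes with a mean of at least 50, 0 met the size rule in either direction, and the median log2 ratio over 13 genes with a mean of at least 20 was 0.02. Eral1, which chaperones the small subunit rRNA, had 53.6 and 72.1 (log2 ratio 0.42). Mpv17l2 had 57.9 and 69.4, Trub2, a pseudouridine synthase, 49.0 and 53.1, and Noa1 63.4 and 59.5. The list of translation factors, which also holds the insertase Oxa1l, had a median of 0.11 over 9 genes (0.01 with scaling by total reads). Of these 9 genes 8 were above 0 as deposited, against 55% of the 5892 genes averaging 20 or more. None of the 6 averaging 50 or more met the size rule. Mrrf, the ribosome recycling factor, had 56.2 and 76.7 (0.44), and Tufm, the elongation factor that brings charged tRNAs, 239.7 and 298.7 (0.32). Oxa1l, the insertase that receives newly made proteins, had 79.8 and 87.2, and Tsfm, an elongation factor, 57.6 and 54.998.

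Of 12 genes in the list of mitochondrial aminoacyl-tRNA synthetases with a mean of at least 20, 6 had a log2 ratio above 0 and 6 below. Among those below was Gatc (27.3 and 17.9), an amidotransferase subunit and not a synthetase. With a mean of at least 50 the list held 2 genes, Iars2 at 83.1 and 63.4 and Tars2 at 90.5 and 86.8. The 4 genes of mitochondrial DNA transcription and upkeep with a mean of at least 20 had a median of 0.02, and Polg, the DNA polymerase, had 90.4 and 82.5. From the mitochondrial genome, whose messages these ribosomes translate, mt-Co1 had 3074 and 2786, mt-Nd1 297.1 and 279.0, mt-Nd2 111.9 and 127.7, and mt-Nd5 58.0 and 45.8. Only 10 of its 13 protein-coding genes were listed. Values were very low for mt-Co2 (1.87 and 1.85), mt-Co3 (1.64 and 1.75) and mt-Nd3 (1.88 and 1.54). How fully the values catch the mitochondrial messages was not tested. After the length and GC correction the log2 ratio went from -0.14 to 0.11 for mt-Co1 and from -0.09 to 0.19 for mt-Nd1. For mt-Nd5 it went from -0.34 to 0.01, so the directions of these genes depend on the correction. The correction also took mt-Nd2 from 0.19 to 0.54 and mt-Cytb from 0.05 to 0.30. The median over the 6 genes of that genome with a mean of at least 20 went from -0.08 to 0.25. None of the 5 genes of that genome with a mean of at least 50 met the size rule. Of 17 protein import genes with that mean, 1 did: Timm17b, of the inner membrane translocase, rose from 60.7 to 99.0 (log2 ratio 0.70). Among all 3629 genes with that mean, 3.39% were at least 1.5-fold higher. Timm17b stood at 0.60 under scaling by total reads. Once length and GC content were corrected for, it stood at 0.57 and fell short of 1.5-fold. Hspd1, the matrix chaperonin, had 132.2 and 90.5, Timm22 77.3 and 101.8, and Tomm70a 61.2 and 46.6.

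Cytosolic ribosomal protein genes differed more between the libraries than the mitochondrial ones. Their median log2 ratio was 0.31 over 75 genes, against 0.08 in each mitochondrial subunit. Of these 75 genes 74 were above 0, against 55% of the 5892 genes averaging 20 or more. With scaling by total reads the medians were 0.21 and -0.02, and after the length and GC correction 0.20 against 0.03 for the large and 0.08 for the small subunit. At 1.25-fold or more, 32 of 75 cytosolic and 4 of 54 mitochondrial genes were higher, against 15.9% of 3629 genes averaging 50 or more. Only Rps12 passed 1.5-fold, from 1242 to 1868, and its log2 ratio of 0.48 with scaling by total reads, or 0.53 after the correction, fell short. Rpsa (4936 and 7343), Rplp1 (3380 and 4873) and Rpl39 (520.5 and 712.4) did not pass it. Many pseudogene copies exist for the cytosolic genes, so their reads may have been split or lost.

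**Figure D5:**
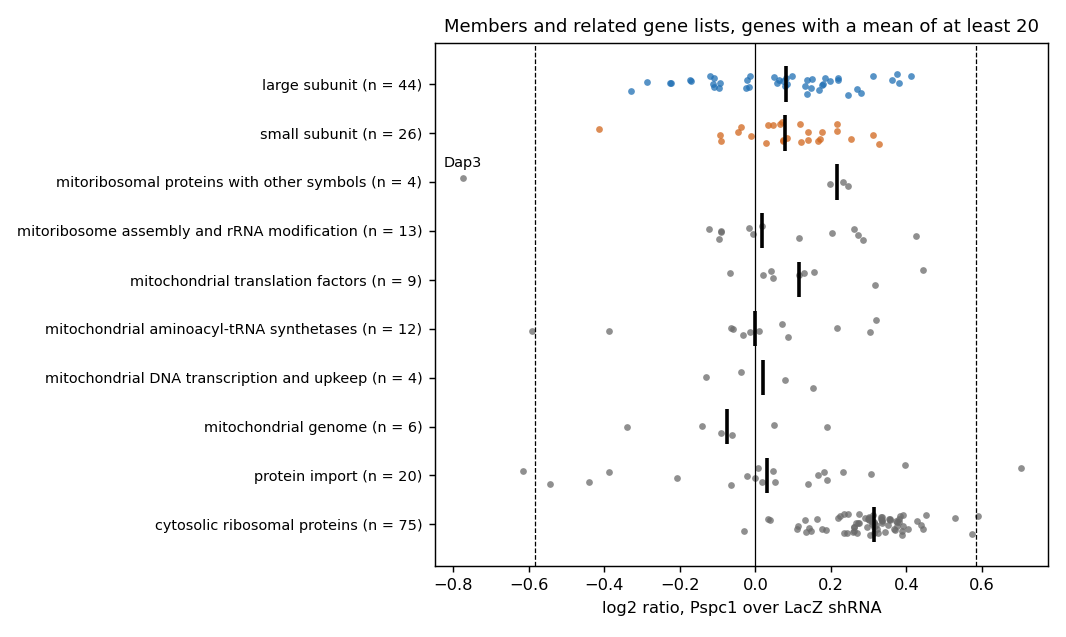
Log2 ratio of each gene with a mean of at least 20 in the large and small subunit and in 8 related lists, 1 point per gene with vertical jitter; black bars are medians and dashed lines mark 1.5-fold. The subunit medians lie at 0.08 (-0.02 with scaling by total reads), the cytosolic ribosomal proteins at 0.31, and Dap3 stands alone at -0.77 in its list.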

How the data were processed

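Poly-A RNA was sequenced from MS1 cells with a LacZ or a Pspc1 hairpin, 1 library each, grouped by the treatment label. Named without a role, per the submitters' processing notes, are featureCounts 2.0.0, DESeq 1.39.0, Trimmomatic 0.39, HISAT2 2.1.0 and the build mm10. Annotation, strand setting and low-count filter are not given in the sources used here. A scaled gene signal was deposited by the authors. All were whole multiples of 1 step per library (0.0153 and 0.0197, within 0.01 reads), and dividing by it gave the reads used for exact (Clopper-Pearson) counting intervals, which cover counting error only. The design had allowed for raw counts, and the values were used as deposited.

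Log2 ratios used a pseudocount of 0.5, which understates changes of low genes. Lists used a mean of at least 20 and calls a mean of at least 50. Symbols were found for 11399 genes. Length, starts and overlaps came from GENCODE M21, whose family has 78 genes by the same rule; Mrpl53 is not analysed here. The named genes were the 8 highest and 8 lowest ratios and the 5 highest and lowest levels per subunit, members with a mean under 20 or a special role, and up to 4 per related list with the largest absolute ratio among genes averaging 50 or more. Members and lists were chosen with earlier results of these data known. Alternatives were 3 other scalings, a pseudocount of 5, other minimum means, a length and GC correction (cubic fit) and other memberships. Steps were tested on simulated data. Python 3.11.15, numpy 2.4.6, pandas 2.3.3, scipy 1.17.1 and matplotlib 3.10.9 were used.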

Additional observations from a re-analysis of the deposited data

How the results depend on the processing

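The counts of members called at 1.5-fold and 2-fold stayed at 0 under every scaling, pseudocount, minimum mean and membership tried. With a limit of 1.25-fold they became 4 higher and 1 lower in the large subunit and 1 lower in the small subunit. With scaling by total reads the median log2 ratio was -0.021 for the large subunit (0.08 as deposited) and -0.025 for the small subunit (0.08). The other alternatives moved either median by no more than 0.064 log2. Per kb of the principal mRNA the median level in the control library was 46.4 for the large subunit (29.5 per kb of merged exons) and 30.4 for the small subunit (22.6). Scaling by total reads moved every member by about -0.10. In all 5 settings and as deposited, 27 members had a log2 ratio above 0 and 15 below. The length and GC correction moved single members by -0.33 to 0.34 and changed the sign of 21 of the 77. Scaling by total reads changed the sign of 19 of them. Leaving out a replicate was not possible with 1 library per group. No paired analysis was possible because each group holds 1 library. Counting error limits the members with few reads most (335 reads in a library for Mrpl1), and the missing replicates limit every comparison.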

Other observations

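The listed genes also held Mrpl23-ps1, a processed pseudogene that the rule leaves out, with 0.965 in the control and 1.005 in the knockdown library, beside 50.3 and 46.3 for Mrpl23.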
